A study of Homo sapiens with 20 samples.

Results

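MYC, its partner MAX and 8 related genes that share MAX or the MAX-like protein MLX were examined by SLAM-seq in MM1.S cells given dCBP-30. The genes were taken by name: the activator MYC, the shared partner MAX, 6 MAX-bound antagonists of MYC (MXD1, MXD3, MXD4, MXI1, MNT and MGA), and the Mondo branch, MLX with its partner MLXIP (MondoA). These are 10 of the 19617 genes in the tables, and each was represented by the transcript that held most of its reads, counted over all 20 libraries. All 10 passed the filter on low counts, both among the 10086 genes tested for new RNA and among the 12272 tested for total RNA.

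MM1.S is an established multiple myeloma line, genotype WT. Cells received 10 nM dCBP-30, a degrader of the histone acetyltransferases CBP and p300, or the vehicle DMSO, for 2, 6 or 24 h, with 3 libraries in each of the 6 groups and a separate DMSO group at every time point. All 18 libraries were labelled for 1 h with 100 µM 4-thiouridine (4sU), so that a read in which a C stands for a genomic T (a T>C read) came from RNA made in that hour, and 2 further libraries had no 4sU. The labels do not say whether the 3 libraries of a group came from separate cultures, so p-values measure only the spread between these libraries.

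MYC is a transcription factor that binds DNA only when paired with MAX, mostly at the sequence called the E-box, and drives genes of ribosome assembly, metabolism and cell division. The MXD proteins, MXI1, MNT and MGA pair with the same MAX and recruit repressors to the same sites, MXD proteins and MNT through the SIN3 corepressor and MGA through a Polycomb complex. MLX pairs with MondoA and also with some MXD proteins and MNT, and links the network to glucose sensing. MYC is a well known dependency of myeloma cells, its mRNA is short-lived, and the question asked here is whether its antagonists rose as it fell.

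The libraries held 12440700 to 18729086 reads on genes. Reads with a conversion made up 4.71% to 6.87% of them under dCBP-30, 6.00% to 8.62% under DMSO and 0.794% and 0.809% without 4sU. Conversions per T>C read were similar in both arms at 2 and 6 h (2.12 to 2.27), but at 24 h they numbered 1.43 to 1.51 under dCBP-30 and 2.46 to 2.51 under DMSO, and the part of this difference in the 24 h values below was not tested. The 9 plasma cell markers examined had mean levels of 125 (CD38) to 1521 (MZB1) RPM (reads scaled to 1000000 reads of the library) under DMSO, whereas of 12 markers of other cell types the highest was PECAM1 at 10.7 RPM and CD3D, LYZ and EPCAM had no reads. The summed plasma cell markers also moved with treatment, from 6971 to 7568 RPM under DMSO to 4667 to 5172 RPM under dCBP-30 at 2 h, and from 5830 to 6143 to 619 to 807 RPM at 24 h, when TNFRSF17 (BCMA) showed the largest decrease among them (log2 -4.65 ± 0.41 in T>C and -5.03 ± 0.34 in total reads). Of the other markers, PECAM1 was lower and CD3E higher in total reads at 24 h (8.34 to 3.15 and 5.27 to 12.9 RPM), and the part of any of these in the network results was not tested. Since these are bulk samples, fewer cells of a kind and less RNA per cell cannot be told apart.

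Levels are given in RPM of the library's total reads corrected by TMM (a factor that sets the bulk of genes equal between libraries), for both kinds of read, and a gene was called when edgeR's quasi-likelihood test gave a Benjamini-Hochberg adjusted p under 0.05 and the change was more than 2-fold. On this scale the median of all genes tested shifted by log2 0.04, -0.28 and -0.69 in T>C reads at the 3 times. In total reads it lay between -0.00 and 0.05.

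Among 9 of the 10 genes with an entry among RefSeq promoters (GRCh38.p14, 250 bases before to 50 bases after the gene start), the E-box CACGTG, which reads the same on both strands, occurred at 3. The letters occur in 7.26% of the 35116 promoters of that length. They are shown here because E-boxes are the sites that MYC and its antagonists share, and the capitals mark the motif in 30 bases of the gene's own strand. The MXD4 window lies at chr4:2262330-2262359 (minus strand, motif 238 bases before the start), that of MNT at chr17:2401236-2401265 (minus strand, 193 bases before) and that of MLX at chr17:42567038-42567067 (plus strand, 50 bases before).
MXD4: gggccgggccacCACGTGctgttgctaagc
MNT: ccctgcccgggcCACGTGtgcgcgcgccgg
MLX: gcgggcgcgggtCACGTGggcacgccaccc
No match was found in the windows of MAX, MXD1, MXD3, MXI1, MGA and MLXIP, and a match is only a description of the sequence. MXD4 rose and MNT fell in the tests below, so the 2 antagonists with the motif in these windows moved in opposite directions.

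MYC fell at every time point, in new and in total RNA. Its reads were counted on the 3′ UTR in exon 3 of 3 (hg38, chromosome 8, 127740959 to 127742951). Under DMSO at 2 h its T>C reads stood at 123, 127 and 117 RPM, and under dCBP-30 at 1.47, 2.97 and 0.25 RPM. The corresponding values at 6 h were 145, 117 and 119 RPM against 0.479, 1.27 and 2.33 RPM. By 24 h they were 98.9, 93.8 and 98.0 RPM against 0.712, 0.935 and 0.912 RPM. No dCBP-30 library came near a DMSO library. The log2 fold changes were -6.29 ± 0.50 (SE) at 2 h, -6.54 ± 0.50 at 6 h and -6.81 ± 0.52 at 24 h (edgeR adjusted p = 4.63e-07, 1.55e-07 and 9.78e-08). The dCBP-30 values rested on 4 to 45 T>C reads a library at 2 h, 8 to 38 at 6 h and 13 to 17 at 24 h, so the exact size of the fold is imprecise. Leaving out 1 library at a time gave -7.27 (without dCBP-30 2 h replicate 2) to -5.74 at 2 h, and the fold also moved by over 1.5 times at 6 h without dCBP-30 6 h replicate 3 (-7.15).

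Total MYC reads followed within 2 h. They fell from 138, 144 and 135 RPM to 3.19, 4.75 and 2.13 RPM at 2 h, a log2 change of -5.37 ± 0.26 (adjusted p = 6.06e-13). They then lay at 160, 128 and 132 RPM under DMSO against 0.538, 1.44 and 2.57 RPM at 6 h, and at 112, 102 and 109 RPM against 0.712, 1.05 and 0.912 RPM at 24 h. The log2 changes there were -6.53 ± 0.28 and -6.91 ± 0.29 (adjusted p = 5.94e-15 and 2.62e-15). The loss in total reads was larger at 24 h than at 2 h, by a log2 difference of -1.54 ± 0.40 (adjusted p = 0.0035). The difference between 6 and 2 h was -1.16 ± 0.38 (adjusted p = 0.038), which no longer passed without TMM (-0.95, adjusted p = 0.083) or without any 1 of 9 of the 12 libraries at these times (-0.80, adjusted p = 0.17, without dCBP-30 2 h replicate 2), and the difference between 24 and 6 h was -0.38 ± 0.43 (adjusted p = 0.55).

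MYC reads were almost all new. Under DMSO 89.6% of its reads had a conversion (86.9% to 91.8% in the 9 libraries), against a median of 9.93% over the 9393 genes with at least 500 reads, and 2 genes, MYC counted, reached its share. Without 4sU 15 of its 3526 reads, or 0.425%, had one. The reads left under dCBP-30 at 2 h were in larger part unconverted: 66 of 143 had a conversion and 77 did not, a share of 46.2%, with 11.8% to 62.5% in single libraries. At 6 h 69 of 77 had one and at 24 h 47 of 49, or 89.6% and 95.9%. The shares of the other genes under DMSO ran from 48.7% for MXD1, 28.3% for MGA and 23.9% for MNT, through 18.9% for MLX, 15.4% for MLXIP and 14.2% for MXI1, to 9.34% for MXD3, 6.51% for MXD4 and 5.54% for MAX. A share also depends on how many T the counted bases hold, which ranged from 20.4% (MXD3) to 33.6% (MXD1) of the 3′ UTR.

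**Figure D1:**
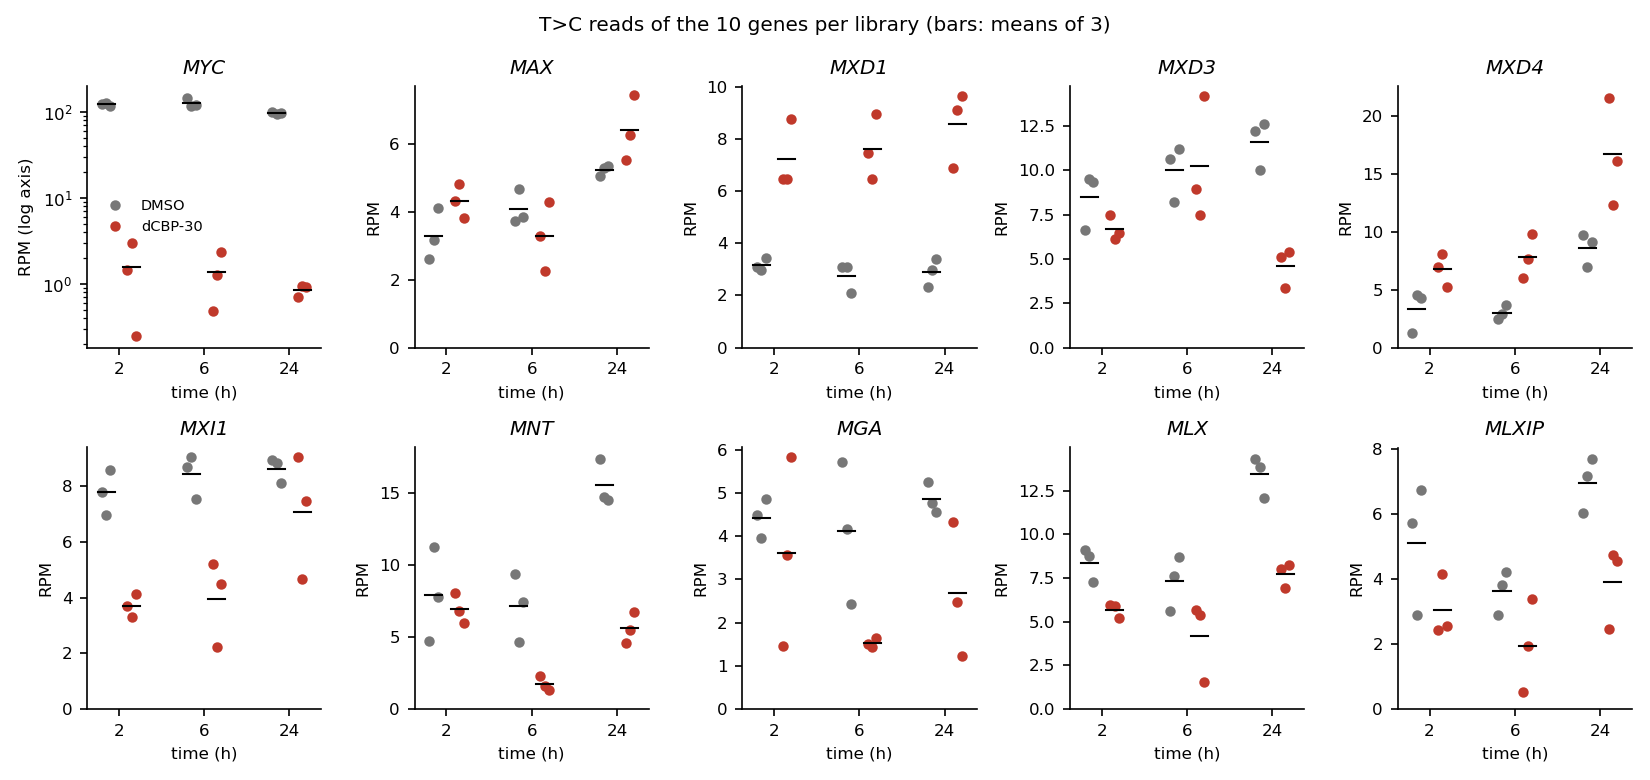
T>C reads of the 10 genes in each library, in RPM of the library's total reads, by hours of treatment. Grey points are DMSO and red points dCBP-30 libraries, short bars are means of 3, and the MYC axis is logarithmic. MYC lies at 93.8 RPM or more in every DMSO and at 2.97 RPM or less in every dCBP-30 library, and MXD1 and MXD4 lie higher with dCBP-30 at all 3 times.

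MAX, the obligate partner of MYC and of the antagonists, was not called at any time on the scale used here. Its 3′ UTR is in exon 5 of 5 (chromosome 14, minus strand, 65075127 to 65077411). Total MAX reads ranged from 75.5 to 84.4 RPM under DMSO and from 86.6 to 89.9 RPM under dCBP-30 at 2 h, and the groups did not overlap, although the log2 change of 0.12 ± 0.12 did not pass the test (adjusted p = 0.68). At 6 h the groups overlapped (log2 -0.03 ± 0.11, but 0.29 when libraries were scaled without TMM). At 24 h the dCBP-30 libraries held 94.5, 92.3 and 91.8 RPM and the DMSO libraries 63.1, 70.8 and 71.1 RPM, a rise of log2 0.44 ± 0.12 (adjusted p = 0.0019) that is less than 2-fold. Over the alternative settings with no library omitted, this rise was 0.42 to 0.97. New MAX RNA changed by log2 0.38 ± 0.35, -0.32 ± 0.34 and 0.29 ± 0.33 at the 3 times, none past the test (adjusted p = 0.52 to 0.59). At 24 h it depended on the scaling, with 0.81 without TMM (adjusted p = 0.056), 0.95 with scaling by the T>C reads (adjusted p = 0.022) and 1.04 with DESeq2 and size factors from T>C reads (adjusted p = 0.0014), the last a call above 2-fold.

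The 6 antagonists did not move as a block. In T>C reads MXD1 and MXD4 were called higher at 2 h, where 1.64% of genes tested were called higher, and again at 6 h (2.35% of genes), and MXD1 alone at 24 h (2.18% of genes). MXI1 was called lower at 2 h (7.14% of genes), MNT, MGA and MXI1 at 6 h (17.1% of genes), and MNT and MXD3 at 24 h (31.2% of genes). In total reads MXD1 was called higher at all 3 times (0.464%, 7.47% and 15% of genes) and MXD4 at 24 h, and MNT was called lower at 6 h (8.68% of genes lower). MYC was the only network gene called lower in total reads at 2 h and at 24 h, when 1.25% and 16.1% of genes were. With no limit on size, an adjusted p under 0.05 added MLX as lower in new RNA at 6 and 24 h (21.3% and 37% of genes), which depended on the scaling, and MXD4 as higher at 24 h (2.79%). In total reads it added MXI1 as lower and MXD4 as higher at 6 h (21.5% and 18.8%), and MNT and MXD3 as lower and MAX and MXI1 as higher at 24 h (29.8% and 28.7%). The 24 h losses of MNT and MXD3 depended on the scaling, at log2 -0.22 and -0.19 without TMM.

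Several of these effects differed between times, by interaction contrasts at an adjusted p under 0.05. In T>C reads MNT was lower at 6 and at 24 h relative to 2 h (7.32% and 22.8% of genes) and MXD3 at 24 relative to 6 h (9.12%). For total reads, 6 h relative to 2 h was lower for MNT and MYC (10.6% of genes) and higher for MXD1 (5.09%), and 24 h relative to 2 h was lower for MNT, MXD3 and MYC (22.7%) and higher for MLX, MXD1, MXD4 and MXI1 (18.4%). From 6 to 24 h the effect moved down for MXD3 (16.5%) and up for MAX, MXD4 and MXI1 (15.6%).

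MXD1 (MAD1), classically induced when cells differentiate, rose at each time and in both readouts. Its 3′ UTR lies in exon 6 of 6 on chromosome 2 (69938285 to 69942945). Its T>C reads were 3.09, 2.96 and 3.44 RPM under DMSO and 6.47, 6.47 and 8.76 RPM under dCBP-30 at 2 h. They were 3.11, 3.08 and 2.10 against 7.48, 6.48 and 8.95 RPM at 6 h. At 24 h they were 2.33, 2.98 and 3.41 against 6.90, 9.13 and 9.66 RPM. Groups did not overlap at any time. The log2 fold changes were 1.19 ± 0.32, 1.46 ± 0.32 and 1.56 ± 0.32 (adjusted p = 0.0066, 0.00027 and 5.59e-05), and the call at 2 h was lost without dCBP-30 2 h replicate 3 (1.03, adjusted p = 0.064). Its T>C change at 24 h was 2.31 with DESeq2 and size factors from T>C reads.

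The difference in the pool of MXD1 RNA was larger at the later times. Total reads of 6.79, 7.40 and 9.19 RPM under DMSO stood against 19.2, 17.9 and 20.6 RPM at 2 h. They stood at 5.79, 7.24 and 4.54 against 26.3, 25.1 and 24.1 RPM at 6 h, and at 4.21, 4.41 and 5.29 against 27.2, 29.4 and 26.1 RPM at 24 h. The folds were 2.47, 4.29 and 5.95 (log2 1.30 ± 0.19, 2.10 ± 0.19 and 2.57 ± 0.20; adjusted p = 5.10e-05, 2.64e-09 and 4.45e-11). The rise at 6 h exceeded that at 2 h by log2 0.80 ± 0.27 (adjusted p = 0.044, but 0.050 to 0.13 without any 1 of 10 of the 12 libraries), and the rise at 24 h exceeded it by 1.27 ± 0.27 (adjusted p = 0.0005). No such difference between times passed the test in its T>C reads. Mean total reads of MXD1 under DMSO were themselves 7.80, 5.86 and 4.64 RPM at 2, 6 and 24 h. The change from 2 to 24 h there was log2 -0.75 ± 0.20 (edgeR adjusted p = 0.13). The part of this in the differences between times was not tested.

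MXD4 (MAD4) rose first in new RNA and later in the pool. Its reads fall on exon 6 of 6 on chromosome 4 (minus strand, 2247432 to 2250543). Its T>C reads were 1.24, 4.51 and 4.26 RPM under DMSO and 6.99, 8.05 and 5.26 RPM under dCBP-30 at 2 h, and 2.47, 2.88 and 3.66 against 6.04, 7.64 and 9.80 RPM at 6 h. At 24 h both groups were higher, with 9.72, 6.98 and 9.13 against 21.6, 12.3 and 16.2 RPM. The groups were apart each time, with log2 changes of 1.01 ± 0.33, 1.38 ± 0.32 and 0.96 ± 0.30 (adjusted p = 0.032, 0.00067 and 0.0084), the last just under 2-fold. The 2 h call was fragile, since it was lost with reads summed over transcripts (adjusted p = 0.11) and without 1 of 3 libraries, among them DMSO 2 h replicate 1, whose level was the lowest (0.62 without it, adjusted p = 0.30). At 24 h scalings with smaller shifts of the median gave log2 1.47 to 1.70, above 2-fold.

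In total reads MXD4 stood at 63.3, 76.5 and 77.9 RPM under DMSO against 77.3, 98.1 and 69.9 RPM at 2 h, and the groups overlapped (log2 0.17 ± 0.15, adjusted p = 0.62). At 6 h it reached 95.7, 104 and 135 RPM against 68.9, 74.1 and 54.6 RPM, a rise of log2 0.76 ± 0.15 (adjusted p = 0.00023). At 24 h it stood at 269, 264 and 237 RPM against 108, 83.5 and 92.2 RPM, 2.71-fold higher (log2 1.44 ± 0.15, adjusted p = 8.82e-09). The rise grew between 2 and 24 h by log2 1.27 ± 0.21 (adjusted p = 2.56e-05) and between 6 and 24 h by 0.68 ± 0.21 (adjusted p = 0.013).

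MNT, the most widely expressed antagonist of MYC and one that also pairs with MLX, went the other way at 6 and 24 h. Its 3′ UTR is in exon 6 of 6 (chromosome 17, minus strand, 2384073 to 2386900). At 2 h its T>C reads overlapped between groups, with 4.71, 11.3 and 7.77 RPM under DMSO and 8.03, 6.80 and 5.94 RPM under dCBP-30 (log2 -0.20 ± 0.30, adjusted p = 0.78). At 6 h they were 9.40, 4.62 and 7.46 against 2.27, 1.61 and 1.35 RPM, and at 24 h 17.4, 14.7 and 14.5 against 4.60, 5.50 and 6.76 RPM. Both sets were clear of each other, at log2 -2.03 ± 0.33 and -1.46 ± 0.30 (adjusted p = 1.03e-06 and 4.83e-05). The effect at 6 h differed from that at 2 h by -1.83 ± 0.44 (adjusted p = 0.0034). At 24 h the change was under 2-fold, at -0.95 to -0.72, with other scalings of the T>C reads, and the median of all genes had itself shifted.

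Total MNT reads were 30.7, 45.1 and 43.4 RPM under DMSO against 45.7, 50.4 and 43.7 RPM at 2 h and overlapped. They then fell to 13.8, 11.4 and 19.7 RPM against 41.6, 35.9 and 29.8 RPM at 6 h (log2 -1.26 ± 0.18, adjusted p = 5.45e-06; -0.94, under 2-fold, without TMM). At 24 h they were 31.5, 34.7 and 30.9 against 61.4, 47.9 and 52.6 RPM, a loss of log2 -0.74 ± 0.18 (adjusted p = 0.00094). On this scale no library of either group overlapped at 6 or 24 h, but the 24 h loss shrank to -0.22 without TMM.

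MXI1 (MXD2) fell in new RNA at 2 and 6 h. It was counted on exon 6 of 6 on chromosome 10 (110284988 to 110287365). Its T>C reads were 7.79, 6.98 and 8.60 RPM under DMSO and 3.71, 3.30 and 4.13 RPM under dCBP-30 at 2 h, and 8.69, 9.05 and 7.52 against 5.2, 2.22 and 4.47 RPM at 6 h. The log2 changes were -1.07 ± 0.31 and -1.09 ± 0.31 (adjusted p = 0.014 and 0.0050), close to the 2-fold limit, and neither passed it when libraries were scaled without TMM (-0.96 and -0.77). Each call also rested on single libraries, and the one at 6 h was lost without dCBP-30 6 h replicate 2 (-0.80, adjusted p = 0.077). At 24 h the libraries overlapped, at 8.94, 8.82 and 8.12 against 9.04, 4.67 and 7.46 RPM (log2 -0.29 ± 0.30, but 0.23 to 0.45 with 3 other scalings, adjusted p from 0.21 to 0.62).

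Its total reads turned with time. They were 59.9, 55.8 and 64.9 RPM under DMSO against 52.6, 53.7 and 48.0 RPM at 2 h (log2 -0.23 ± 0.11, adjusted p = 0.33), and 61.3, 60.4 and 61.5 against 34.6, 39.4 and 42.9 RPM at 6 h (-0.65 ± 0.11, adjusted p = 7.07e-05). At 24 h they were 53.5, 55.3 and 53.3 against 71.1, 68.8 and 63.1 RPM, a small rise of 0.32 ± 0.11 (adjusted p = 0.017). Over the alternative settings with no library omitted, the 6 h change was -0.69 to -0.33 and the 24 h change 0.28 to 0.85. On the TMM-corrected scale every dCBP-30 library was below every DMSO library at 2 and 6 h and above at 24 h. The difference between the effects at 24 and 6 h was log2 0.97 ± 0.16 (adjusted p = 3.86e-05).

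MXD3 (MAD3), the MXD gene tied to the S phase of dividing cells, fell at 24 h. Its short 3′ UTR of 378 bases is in exon 6 of 6 (chromosome 5, minus strand, 177307210 to 177307587). T>C reads overlapped at 2 h (log2 -0.35 ± 0.28) and at 6 h (0.03 ± 0.27). At 24 h they were 12.2, 10.0 and 12.6 RPM under DMSO and 5.10, 3.35 and 5.42 RPM under dCBP-30 (-1.33 ± 0.28, adjusted p = 6.92e-05; under 2-fold, at -0.81 to -0.59, with other scalings). The effect at 24 h differed from that at 6 h by -1.35 ± 0.38 (adjusted p = 0.011). Total reads at 24 h were 90.1, 89.3 and 100 RPM against 59.9, 52.5 and 58.2 RPM (-0.71 ± 0.12, adjusted p = 2.41e-05), without overlap on this scale. Without TMM this change shrank to -0.19.

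MGA, a very large protein that carries both a T-box and a MAX-binding domain and sits in a Polycomb repressor complex, had few reads. It was counted on exon 23 of 23 on chromosome 15 (41767281 to 41773081). Its T>C reads at 6 h were 5.72, 4.16 and 2.44 RPM under DMSO and 1.5, 1.44 and 1.65 RPM under dCBP-30, which did not overlap (log2 -1.42 ± 0.44, adjusted p = 0.012). That call was lost without DMSO 6 h replicate 1 (-1.11, adjusted p = 0.10) and without TMM (-1.11, adjusted p = 0.066). At 2 and 24 h the changes of -0.28 ± 0.42 and -0.86 ± 0.42 did not pass the test (adjusted p = 0.79 and 0.099). Its total reads overlapped at all times, at 10.6 to 19.3 RPM under dCBP-30 and 12.1 to 19.7 RPM under DMSO, with log2 changes of 0.09 ± 0.19, -0.25 ± 0.20 and -0.25 ± 0.19, the last 2 positive without TMM (0.07 and 0.28).

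MLX and MLXIP, the Mondo branch, were not called. MLX is counted on exon 8 of 8 (chromosome 17, 42571604 to 42573239) and MLXIP on exon 17 of 17 (chromosome 12, 122141813 to 122147344). New MLX RNA was lower at less than 2-fold at 6 h (log2 -0.79 ± 0.31, adjusted p = 0.048) and at 24 h (-0.80 ± 0.29, adjusted p = 0.025), with 14.3, 13.8 and 12.1 RPM under DMSO against 8.0, 6.93 and 8.27 RPM at 24 h. Neither passed the test without TMM, with scaling by the T>C reads or with DESeq2 and size factors from them, at -0.48 to -0.41 for 6 h (adjusted p = 0.29 to 0.39) and -0.28 to -0.05 for 24 h (adjusted p = 0.52 to 0.92), or with reads summed over transcripts (adjusted p = 0.13 and 0.070). The 6 h change turned on single libraries, being -0.40 (adjusted p = 0.39) without dCBP-30 6 h replicate 3 and called without replicate 1 (-1.07, adjusted p = 0.018) or replicate 2 (-1.01, adjusted p = 0.028), and the 24 h change missed the test without any 1 of 3 libraries (adjusted p = 0.063 to 0.083). Total MLX reads changed by -0.50 ± 0.17, 0.02 ± 0.17 and 0.32 ± 0.17 (adjusted p = 0.11, 0.94 and 0.11), and the difference between 24 and 2 h was 0.82 ± 0.24 (adjusted p = 0.0078). New MLXIP RNA changed by -0.74 ± 0.41, -0.90 ± 0.42 and -0.83 ± 0.40 (adjusted p = 0.30, 0.12 and 0.093; -0.30 to -0.07 at 24 h with those 3 scalings), but it was called at 6 h without dCBP-30 6 h replicate 3 (-1.54, adjusted p = 0.012). Its total reads changed by 0.25 ± 0.22, -0.51 ± 0.22 and 0.01 ± 0.21, all with overlapping groups.

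**Figure D2:**
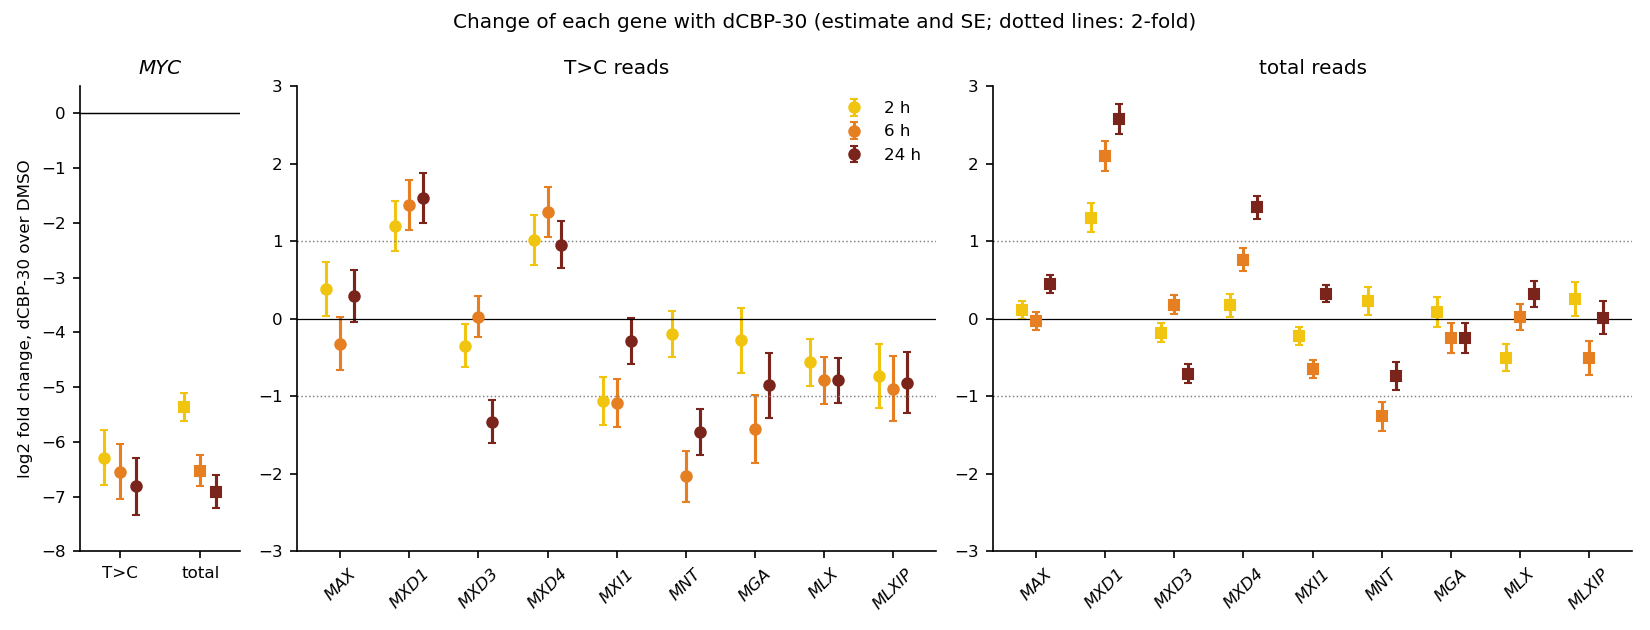
Log2 fold change of dCBP-30 over DMSO with its standard error (edgeR) for each gene at 2, 6 and 24 h, in T>C reads (circles) and total reads (squares), and dotted lines at 2-fold. MYC has its own panel and scale, from -5.37 to -6.91, while the other genes lie between -2.03 and 2.57.

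For the 9 genes other than MYC, the group means of conversions per T>C read at 24 h were 1.28 to 1.74 under dCBP-30 and 1.70 to 3.26 under DMSO. They were 1.55 to 2.84 and 1.59 to 2.84 at 2 h, and 1.77 to 3.09 and 1.49 to 2.92 at 6 h. Whole libraries differed in the same way at 24 h (1.43 to 1.51 against 2.46 to 2.51). Conversions per read of other single genes were not compared, so the 24 h difference cannot be called a trait of these genes in particular. MYC itself had 4.01 and 4.17 at 24 h. The part of this in the 24 h T>C results was not tested, and total reads do not depend on conversions.

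Under DMSO alone, new RNA of MXD4 and MNT was higher at 24 h than at 2 h, by log2 1.36 ± 0.32 (adjusted p = 0.0094) and 0.97 ± 0.29 (adjusted p = 0.039), where 5.33% of genes tested were higher at an adjusted p under 0.05. Against 6 h the differences were 1.51 ± 0.32 and 1.12 ± 0.30 (adjusted p = 0.0093 and 0.027; 2.81% of genes). No other network gene passed the test between DMSO groups, and none did in total reads, where MXD1 changed by log2 -0.75 ± 0.20 from 2 to 24 h (edgeR adjusted p = 0.13). Each effect above was therefore read against the DMSO group of its own time.

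On the TMM-corrected scale the summed reads of the 6 antagonists hardly moved at first. In total reads they came to 308 ± 18.3 RPM (SD, n = 3) under DMSO and 314 ± 30.9 RPM under dCBP-30 at 2 h, and to 305 ± 21.5 and 341 ± 38.2 RPM at 6 h, with overlapping libraries both times. At 24 h the sums were 317 ± 17.7 and 455 ± 24.2 RPM, with every dCBP-30 library above every DMSO library. New RNA summed to 35.1 ± 6.25 and 34.9 ± 1.22 RPM at 2 h, 35.5 ± 4.13 and 32.9 ± 6.91 RPM at 6 h, and 52.2 ± 3.78 and 45.2 ± 7.16 RPM at 24 h. On this scale the pool at 24 h was thus larger with dCBP-30, while the new RNA of the same genes overlapped between groups. The sums depend on the scaling. At 6 h the uncorrected counts were 5125, 6032 and 6235 total reads under dCBP-30 and 4624, 4553 and 4187 under DMSO. The libraries there held 14317703 to 16174878 and 15534780 to 16560196 reads. At 24 h the uncorrected T>C counts were 941, 681 and 870 against 862, 810 and 722 under DMSO. Those libraries held 13784760 to 14401966 and 15446414 to 18729086 reads.

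What changed was the make-up of this sum, which no scaling of libraries affects. MXD4 made up 28.1% to 32.7% of the antagonists' total reads under DMSO at 24 h and 55.5% to 57.0% under dCBP-30. MXD3 made up 27.2% to 31.0% under DMSO and 11.2% to 13.6% under dCBP-30, and MNT 16.1% to 18.6% and 6.68% to 7.44%. MXD1, the smallest contributor under DMSO, made up 1.27% to 1.64% and 5.77% to 6.30%. At 2 h the share of MXD1 was already 5.22% to 7.32% against 2.27% to 2.80%, whereas that of MXD4 overlapped, at 24.4% to 28.6% against 21.2% to 25.9%.

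Set against MYC, the antagonists stood far higher with dCBP-30 at each time. For 100 MYC reads there were 205 to 244 antagonist reads under DMSO at 2 h, 204 to 238 at 6 h and 291 to 296 at 24 h. With dCBP-30 there were 7235 to 13260, 14850 to 56940 and 44630 to 66220. These rest on 34 to 72 MYC reads a library at 2 h, 9 to 42 at 6 h and 13 to 19 at 24 h, so their size is imprecise. As the sums above show, this ratio moved mainly through its denominator. The reads are from 3′ ends and are not divided by length, so the ratio compares groups and does not count molecules of one gene against another.

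**Figure D3:**
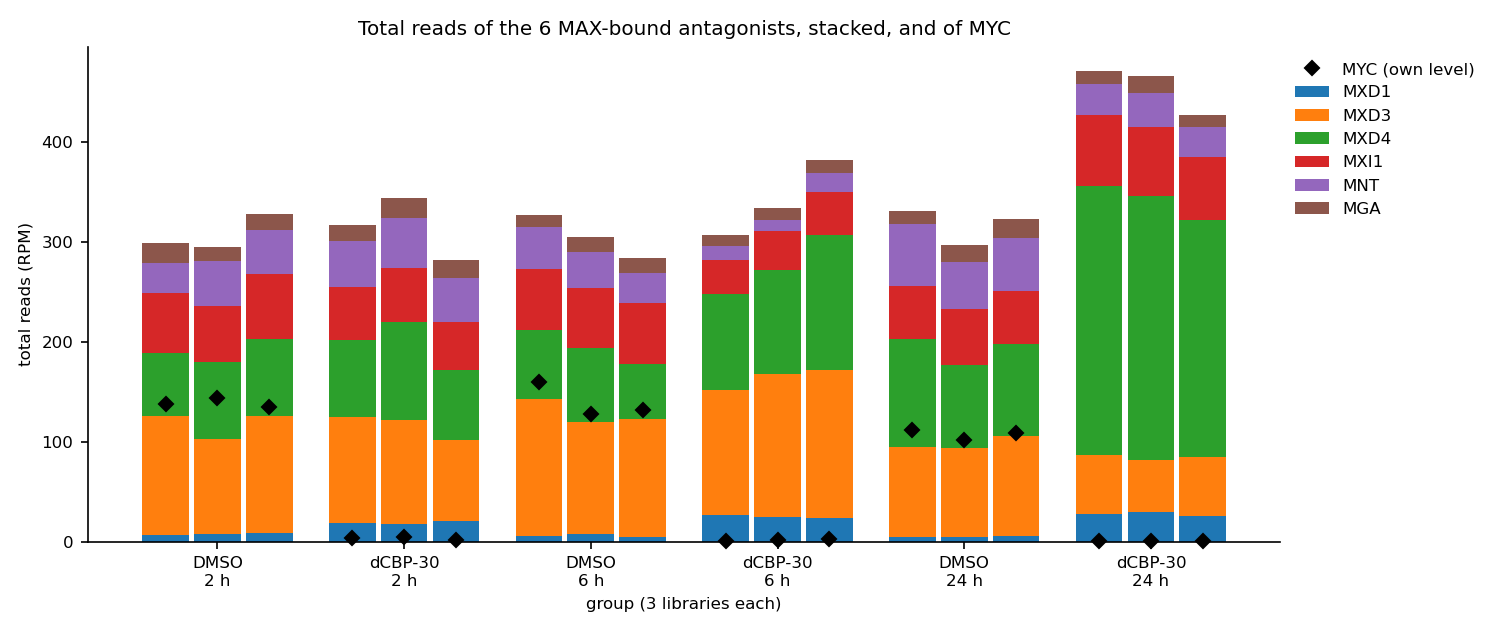
Total reads of the 6 MAX-bound antagonists stacked for each of the 18 labelled libraries, with MYC as black diamonds on the same RPM axis. On this TMM-corrected scale the stacks are of similar height at 2 and 6 h and reach 427 to 472 RPM with dCBP-30 at 24 h, mostly through MXD4. MYC falls from 102 RPM or more to 4.75 RPM or less.

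**Figure D4:**
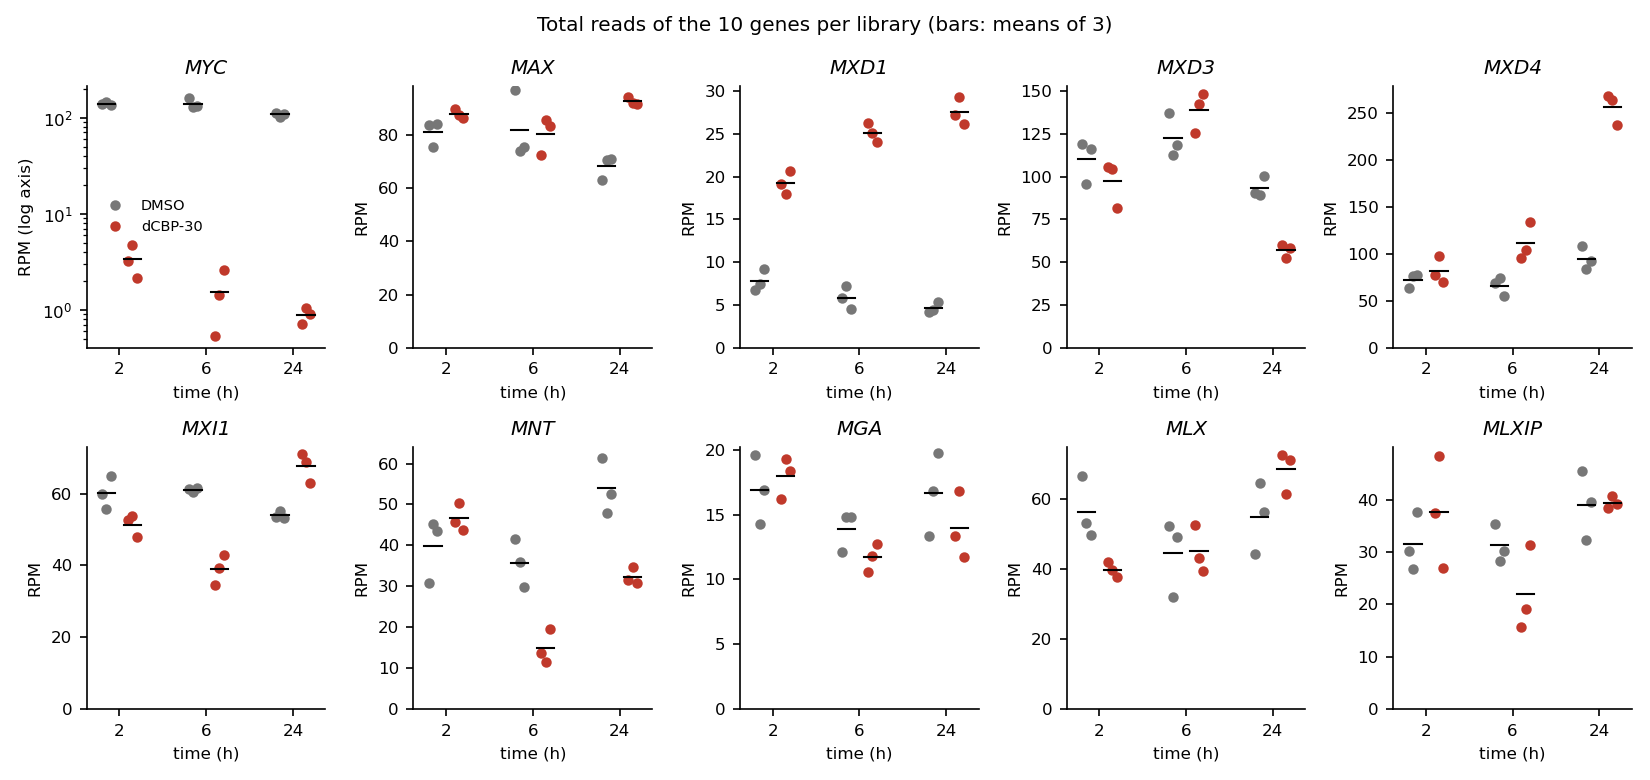
Total reads of the 10 genes in each library in RPM, by hours of treatment, with grey points for DMSO, red points for dCBP-30, short bars for means of 3, and a logarithmic axis for MYC. MXD1 is apart at each time and MXD4 at 6 and 24 h, while MXI1 is lower with dCBP-30 at 6 h and higher at 24 h.

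The genes whose T>C pattern was most like that of a network gene were found by the Pearson correlation of log2(RPM + 1) over the 18 labelled libraries among 4892 genes, a description in which all points share the same libraries and treatments. For MYC they were SLC1A4, an amino acid transporter (r = 0.985), the chemokine receptor CXCR4 (0.984) and the plasma cell factor IRF4 (0.982). T>C log2 changes at 2, 6 and 24 h were -1.99, -2.36 and -2.62 for SLC1A4 and -5.01, -4.75 and -5.54 for CXCR4. Those of IRF4 were -3.5, -4.3 and -4.5, so all 3 genes fell less than MYC. For MXD1 they were HEXIM1 (0.917), an inhibitor of the elongation kinase P-TEFb, with changes of 1.67, 1.67 and 1.82, then TSPYL4 (0.840) and H3-3B (0.826). MXI1 was nearest to ELK3, SEC14L1 and IRF2 (0.929, 0.926 and 0.915), which had changes of -0.90 to -1.44 at 24 h after -2.57 to -3.93 at 2 and 6 h. MNT was nearest to ARID1B, ACTB and CFL1 (0.934, 0.923 and 0.919), MXD3 to SH3GL1, KDM6A and SMC4 (0.887, 0.884 and 0.876), MXD4 to CTSB, WBP2 and DCAF7 (0.884, 0.844 and 0.840), and MGA to SURF4, FMN1 and SRSF5 (0.837, 0.827 and 0.814).

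Of the remaining MYC and Mondo genes, MYCN and MYCL were present at a low level and MLXIPL (ChREBP) had no reads. MYCN had T>C reads of 3.51 ± 1.54 RPM (SD, n = 3) under DMSO and 0.110 ± 0.190 RPM under dCBP-30 at 24 h, and was called lower there (log2 -4.91 ± 0.93, adjusted p = 1.52e-05). MYCL was called lower at 6 h in T>C reads, at 0.288 ± 0.161 against 1.83 ± 0.321 RPM (log2 -2.62 ± 0.87, adjusted p = 0.020), and in total reads at 6 and 24 h (-1.88 ± 0.40 and -1.20 ± 0.39, adjusted p = 0.00053 and 0.011). Neither was called higher at any time.

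TXNIP, which binds thioredoxin and limits glucose uptake and is the best known target of MondoA with MLX, moved both ways. Its total reads were 327 ± 55.0 RPM under DMSO and 151 ± 43.0 RPM under dCBP-30 at 2 h (log2 -1.12 ± 0.20, adjusted p = 0.0014), 284 ± 51.0 and 357 ± 81.6 RPM at 6 h (0.33 ± 0.20, adjusted p = 0.20), and 189 ± 38.7 and 1137 ± 126 RPM at 24 h (2.59 ± 0.21, adjusted p = 1.01e-09). New TXNIP RNA followed the same course, at log2 -1.14 ± 0.20, 0.09 ± 0.20 and 1.63 ± 0.20, and was called at 2 and 24 h. ARRDC4, a related target, had under 2 RPM and was not called.

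Genes that MYC is known to activate fell later than MYC. Of 28 such genes, all tested, in new RNA 2 were called lower at 2 h, 22 at 6 h and all 28 at 24 h, and none higher. Over all genes 7.14%, 17.1% and 31.2% were lower, so the 2 h count lay near that share. The median log2 changes of the 28 were -0.09, -1.90 and -2.48 beside 0.04, -0.28 and -0.69 for all genes. In total reads none was called at 2 h, 8 were lower at 6 h and 27 at 24 h, beside 1.25%, 8.68% and 16.1% of all genes. The medians there were -0.06, -0.79 and -2.07. The 2 genes lower at 2 h, named after their values were seen, were the cyclin CCND2 (158 ± 27.6 RPM down to 18.2 ± 1.12) and the chaperonin HSPE1. At 24 h the largest decrease was that of NME1, a nucleoside diphosphate kinase, at log2 -3.76 ± 0.39 in T>C reads and -3.33 ± 0.19 in total reads.

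Of 8 genes that MYC is known to repress, 4 were tested in T>C reads. None of the 4 was called higher, which lay near the share of all genes called higher (1.64%, 2.35% and 2.18% at 2, 6 and 24 h). Over all genes 7.14%, 17.1% and 31.2% were lower at the 3 times, with medians of 0.04, -0.28 and -0.69. Of these 4 genes 3 were called lower at each time, with medians of -1.65, -1.68 and -1.52. The largest decrease at 24 h was that of CDKN1A (p21), an inhibitor of cyclin-dependent kinases, from 46.9 ± 1.68 to 5.96 ± 1.87 RPM (log2 -2.98 ± 0.20, adjusted p = 3.53e-19). CDKN1B (p27), named after its values were seen, was lower in T>C reads at 2 h (-1.69 ± 0.16) and 6 h (-1.29 ± 0.16), and its total reads were 60.7 ± 4.32 against 156 ± 13.4 RPM at 2 h and 148 ± 13.2 against 153 ± 16.0 RPM at 24 h. In total reads 2, 1 and 1 of the 6 tested were called lower at 2, 6 and 24 h (1.25%, 8.68% and 16.1% of all genes). Only 1, NDRG2, was called higher, at 6 h (1.05 ± 0.28, adjusted p = 0.0040), when 7.47% of all genes were.

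Calls among the genes around the network grew with time, as they did over all genes tested (7.14%, 17.1% and 31.2% lower in T>C reads at the 3 times). None of the 16 genes of the SIN3 corepressor was called at 2 or 6 h in either readout. At 24 h 6 of the 16 were lower and 1 higher in T>C reads, where 31.2% of all genes were lower and 2.18% higher. The list median of -0.67 lay at that of all genes (-0.69). In total reads at 24 h 2 of the 16 were lower and 1 higher, beside 16.1% and 15% of all genes. The largest decreases were those of RBBP4, a histone-binding subunit, in T>C reads (-1.78 ± 0.25) and of ING2, a subunit that reads methylated histone H3, in total reads (-1.65 ± 0.20). The increase was in SIN3B, the scaffold that the antagonists bind, from 2.63 ± 0.636 to 6.69 ± 0.878 RPM in T>C reads (1.34 ± 0.43, adjusted p = 0.010) and from 23.4 ± 5.78 to 75.4 ± 13.8 RPM in total reads (1.69 ± 0.22, adjusted p = 6.76e-07). Of 10 partners of MGA tested in T>C reads, none was called at 2 h, 1 (WDR5) was lower at 6 h and 6 at 24 h, led by the E2F partner TFDP1 (-2.08 ± 0.30), beside 17.1% and 31.2% of all genes. In total reads 4 of the 10 were lower at 24 h (16.1% of all genes) and 1, RYBP, was higher (1.08 ± 0.11, beside 15% of all genes). The medians of these partners at 24 h were -1.13 in T>C and -0.73 in total reads, below those of all genes (-0.69 and 0.05).

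Of the MYC cofactors 12 were tested in T>C reads, and none was called at 2 h, 2 were lower at 6 h (17.1% of all genes) and 5 at 24 h (31.2%), with the acetyltransferase KAT2A lowest at 24 h (-1.78 ± 0.63, adjusted p = 0.020). In total reads at 24 h 3 of 13 were lower and 1 higher, beside 16.1% and 15% of all genes. KAT2A was lowest (-1.56 ± 0.15) and the chromatin remodeller subunit BPTF was higher (1.10 ± 0.16, adjusted p = 1.86e-06). Of 15 genes that act on the stability of MYC protein, none was called at 2 h in T>C reads. In the same readout 2 were lower at 6 h and 6 at 24 h, beside 17.1% and 31.2% of all genes. In total reads at 24 h 2 of the 15 were lower and 1 higher, beside 16.1% and 15%. Among them CIP2A, which protects MYC from dephosphorylation, fell most at 24 h (-2.12 ± 0.32 in T>C and -1.71 ± 0.17 in total reads), and the ubiquitin ligase gene FBXO32 rose in total reads (1.21 ± 0.19, adjusted p = 6.55e-06). The medians of both lists at 24 h, -0.93 and -0.86 in T>C reads and -0.14 and -0.12 in total reads, lay near those of all genes, -0.69 and 0.05. At 6 h in T>C reads that of the cofactors was lower, at -0.83, and that of the stability genes was -0.34, beside -0.28 for all genes.

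**Figure D5:**
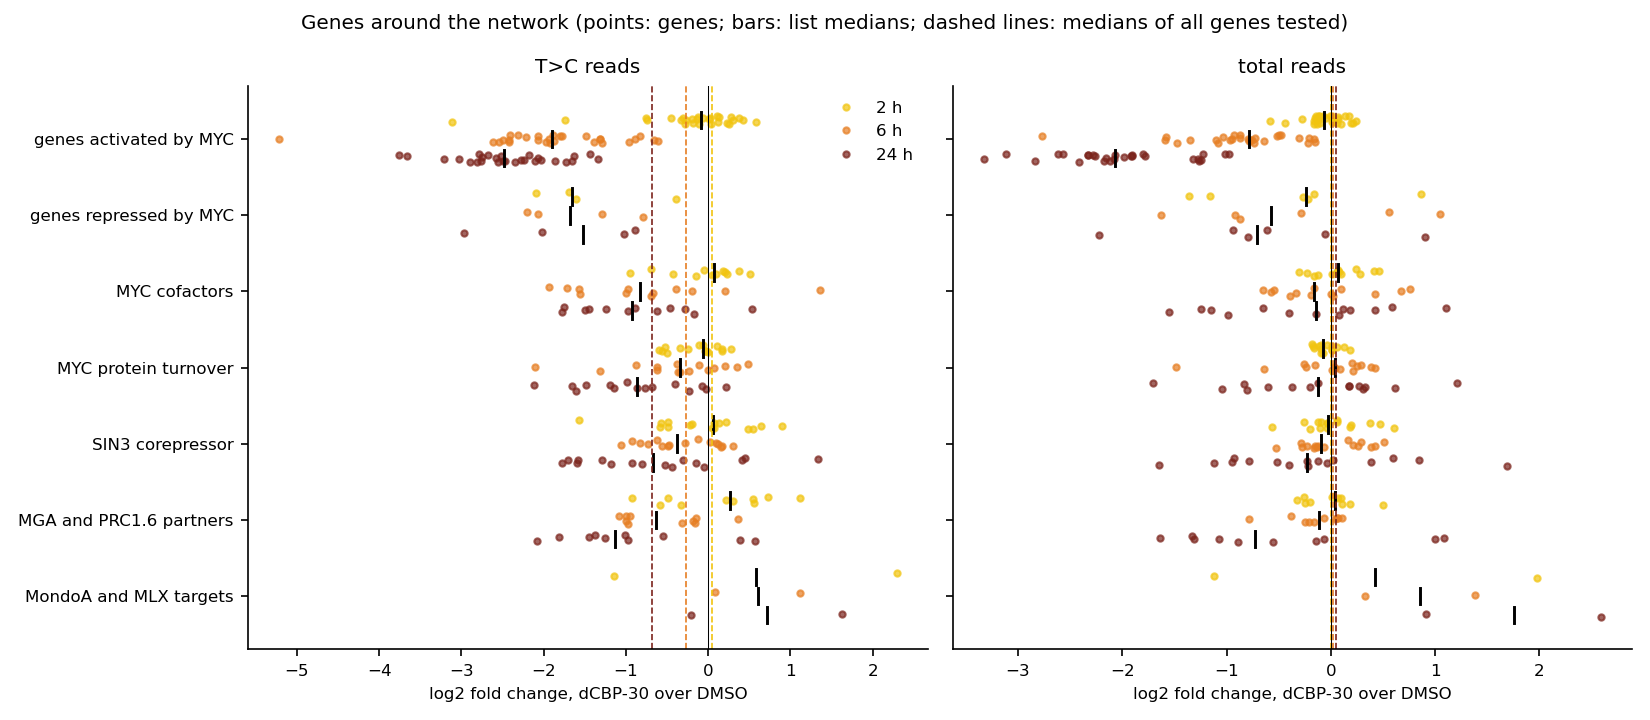
Log2 fold change of dCBP-30 over DMSO for the tested genes of 7 lists at 2, 6 and 24 h, in T>C reads (left) and total reads (right). Points are genes, black bars list medians and dashed lines the medians of all genes tested. The genes activated by MYC lie around -0.09 at 2 h, -1.90 at 6 h and -2.48 at 24 h in T>C reads.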

How the data were processed

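SLAM-seq libraries from 3′-end RNA (QuantSeq) were analysed, 18 labelled with 4sU and 2 unlabelled. The authors trimmed reads with Trim Galore, mapped them with Slamdunk to 3′ UTRs of hg38 and deposited, per transcript and library, raw counts: reads, T>C reads, conversions and T positions covered. Their spike-in was not used here, so a change shared by all genes is seen only in part.

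Of 97466 transcript rows, 91.4% were matched to GENCODE release 44, and unmatched rows held 0.0789% to 0.199% of a library's reads. Each gene took its transcript with the most reads. Counts were tested with edgeR 4.0.16 (quasi-likelihood, robust; 1 mean per group over the 18 labelled libraries; total reads with TMM factors as library sizes; filterByExpr, minimum count 10) in R 4.3.3, with Benjamini-Hochberg adjustment over all genes tested, an adjusted p under 0.05 and a 2-fold limit. Differences between times were interaction contrasts. The script was tested on simulated data. Libraries of a group differed by more than sampling noise (chi-square per degree of freedom 8.54 to 50.1 over 19 pairs).

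Alternatives were other scalings, DESeq2 1.42.0, summed transcripts, background subtraction, filters, single time points, an adjusted p under 0.1, the replicate number as a block, and fits with each library omitted. The genes, lists and tests were chosen with earlier results of these data known. All 10 network genes are named. From each list the largest called decrease and increase at 24 h are named, with MYCN, MYCL, MLXIPL, TXNIP and ARRDC4, and for network genes called at any time the 3 genes most like them among those averaging 50 or more T>C reads under DMSO. Sequences are from RefSeq.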

Additional observations from a re-analysis of the deposited data

Results flagged for a closer look

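The effect of dCBP-30 differed between time points for several genes by a test of the difference itself (edgeR interaction contrasts, adjusted over all genes). In T>C reads, the effect on MNT was lower at 6 h and at 24 h than at 2 h, by log2 -1.83 ± 0.44 (adjusted p = 0.0034) and -1.26 ± 0.42 (adjusted p = 0.020), and that on MXD3 was lower at 24 h than at 6 h, by -1.35 ± 0.38 (adjusted p = 0.011). The second of these was lost without TMM (-0.85, adjusted p = 0.17), with scaling by T>C reads (-0.61, adjusted p = 0.36), with summed transcripts and without 1 of 4 single libraries, and the third with scaling by T>C reads (-1.01, adjusted p = 0.067), with summed transcripts (adjusted p = 0.050) and without dCBP-30 6 h replicate 3 (-1.04, adjusted p = 0.077).

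In total reads the difference between 6 and 2 h was -1.49 ± 0.26 for MNT, -1.16 ± 0.38 for MYC and 0.80 ± 0.27 for MXD1. Between 24 and 2 h it was -1.54 ± 0.40 for MYC, -0.97 ± 0.25 for MNT and -0.53 ± 0.17 for MXD3, and 1.27 ± 0.27 for MXD1, 1.27 ± 0.21 for MXD4, 0.82 ± 0.24 for MLX and 0.55 ± 0.16 for MXI1. Between 24 and 6 h it was -0.89 ± 0.17 for MXD3, 0.47 ± 0.16 for MAX, 0.68 ± 0.21 for MXD4 and 0.97 ± 0.16 for MXI1. Among these, MXD3 between 24 and 2 h (-0.11) and MNT between 24 and 2 h (-0.55) were lost without TMM, and the MXD3 difference also without dCBP-30 2 h replicate 1 (adjusted p = 0.050) or DMSO 2 h replicate 2 (adjusted p = 0.060), MAX was lost without 1 of 4 single libraries (0.33 without DMSO 6 h replicate 1), and MYC and MXD1 between 6 and 2 h were lost without most single libraries (9 and 10 of 12). The contrasts with 2 h share the 2 h libraries. MLX and MAX are the ones among these that were not called at any single time.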

How the results depend on the processing

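MYC, in both readouts and at each time, MXD1 in total reads and at 6 and 24 h in T>C reads, MXD4 in total reads at 24 h, and MXD4 and MNT in T>C reads at 6 h kept their calls under every alternative run. Counts of network genes that moved by over 1.5 times were as follows. Without TMM factors, T>C reads gave 1 gene lower for 2 h, 2 for 6 h and 1 for 24 h, with 2 higher for 24 h, and in total reads at 6 h 1 was lower and 2 higher. Scaling by the T>C reads, or DESeq2 with size factors from them, left 2 lower at 6 h and 1 lower at 24 h, with 2 and 3 higher at 24 h (MAX added), and DESeq2 with these factors put MYC at -6.08 in T>C reads at 24 h. Summed transcripts, background subtraction and the 2 h libraries fitted alone each left 1 gene higher at 2 h (MXD1). Leaving out 1 library gave 1 to 2 genes lower and 1 to 2 higher at 2 h, and 1 to 2 higher at 24 h, in T>C reads. MXI1 at 2 h was lost without dCBP-30 2 h replicate 2 or DMSO 2 h replicate 3, and MXD4 without dCBP-30 2 h replicate 1 or 2 or DMSO 2 h replicate 1.

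Values that changed sign were all uncalled in the main analysis. In T>C reads they were MXI1 at 24 h (0.23 without TMM, 0.36 and 0.45 with scaling by T>C reads), MAX at 6 h (0.039 with DESeq2) and, over fits with 1 library left out, MGA (-0.79 to 0.085) and MNT (-0.47 to 0.15) at 2 h and MXD3 at 6 h (-0.29 to 0.21). In total reads they were MAX (0.29) and MGA (0.07) at 6 h and MGA at 24 h (0.28) without TMM, MLXIP at 24 h (-0.009 with summed transcripts, -0.013 with 24 h alone), and, over fits with 1 library left out, MLXIP at 24 h (-0.11 to 0.14), MGA at 2 h (-0.022 to 0.21), MAX at 6 h (-0.10 to 0.11) and MLX at 6 h (-0.17 to 0.15). The causes were not tested beyond the construction of each setting. Replicate numbers did not pair the samples (correlations of deviations -0.43 to 0.13), and a replicate block left 2, 4 and 3 genes lower and 2, 2 and 1 higher in T>C reads (2, 6 and 24 h in turn), the same counts as without it. With it, the differences between 6 and 2 h in total reads had adjusted p = 0.060 for MYC and 0.062 for MXD1. Low T>C counts limit single values (9 to 394 reads a library outside MYC).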
